A study of Canis lupus familiaris with 15 samples.

Results

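Primary osteosarcomas were analyzed from 8 pet dogs that received cisplatin or carboplatin after limb amputation, out of 15 dogs whose tumors were measured on Affymetrix Canine 2.0 arrays with 1 array per dog. The disease free interval (DFI) was under 100 days in 5 of them and over 300 days in 3. The drug of each dog came from the study's list of tumor donors, matched by the dog's number in the sample title, and the cohort came from the title itself. The question was which genes differed between dogs that relapsed early and dogs that relapsed late when only platinum drugs were in use. All tumors were removed before any drug was given, so the values describe the untreated tumor.

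The DFI < 100 dogs were dog 153599 (mixed breed, spayed female, 9 years, giant cell tumor of the tibia, cisplatin), dog 173175 (Rottweiler, castrated male, 5 years, osteoblastic tumor of the femur, cisplatin), dog 208756 (Labrador Ret., spayed female, 10.2 years, osteoblastic tumor of the humerus, cisplatin), dog 208911 (Doberman, spayed female, 8 years, giant cell tumor of the humerus, carboplatin) and dog 223986 (Greyhound, castrated male, 7 years, osteoblastic tumor of the femur, carboplatin). The DFI > 300 dogs were dog 168327 (Golden Ret., spayed female, 8 years, osteoblastic tumor of the radius, carboplatin), dog 180119 (mixed breed, spayed female, 10.4 years, osteoblastic tumor of the femur, cisplatin) and dog 180223 (mixed breed, spayed female, 11.5 years, osteoblastic tumor of the femur, cisplatin). Values of single dogs are given below in this order. Mean age was 7.84 ± 1.98 years (SD, n = 5) against 9.97 ± 1.79 years (SD, n = 3). The exact permutation test of age, 2-sided, gave p = 0.161, and the smallest p it allows here is 0.0179. The other 7 dogs had received doxorubicin, 3 with the short and 4 with the long interval, and they share no dog with the platinum comparison. The short-interval doxorubicin dogs were 2 castrated males with osteoblastic tumors and 1 spayed female with a giant cell tumor, aged 4.4 to 10.8 years. The long-interval ones were 4 castrated males, 3 with osteoblastic and 1 with a poorly differentiated tumor, aged 7.1 to 13.4 years.

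Cisplatin and carboplatin bind to DNA and join neighbouring bases, mostly guanines, into adducts and crosslinks that block replication. The copper transporter encoded by SLC31A1 carries platinum into cells, ATP-driven pumps and glutathione remove or bind it, nucleotide excision repair cuts adducts out of 1 strand, and the Fanconi and homologous recombination proteins deal with crosslinks between strands. Osteosarcoma cells make bone matrix, and the tumors also hold macrophages, osteoclasts and vessels.

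Values are log2 PLIER signals (the intensity of a probeset, a set of probes for 1 transcript). Differences are DFI < 100 minus DFI > 300 on the log2 scale, with the standard error and the adjusted p from limma over 42860 probesets. A gene was read from its brightest probeset and counted as expressed when its mean over the 15 arrays lay above 6.79, the level that control probes for foreign reporter sequences reach; 6448 named genes did so. Where every dog of a cohort lay below the reporter level of its own array for an expressed gene, the fold is given as a bound, with those dogs set to that level. Of 18 measured osteoblast and bone matrix genes 13 were expressed. COL1A1, COL1A2, SPARC, RUNX2, IBSP, SPP1 and ALPL lay above that level in all 8 tumors. COL1A1 (collagen I) lay between 12.80 and 13.22, SPARC (osteonectin) between 12.96 and 13.51 and RUNX2 (the bone transcription factor) between 6.98 and 8.94. BGLAP (osteocalcin) ran from 3.03 to 12.42 and lay above the reporter level in 3 of the 8. RNA quality, read as the log2 ratio between 3 prime and 5 prime probesets of control genes, stood at 1.92 ± 0.35 (SD, n = 5) and 1.97 ± 0.36 (SD, n = 3). The arrays were run in 2 batches, and the batch of each dog is not given in the sources used here, and the number of arrays limits the precision. The p-values measure the spread between dogs, which differ in breed, age and tumor as well as in outcome.

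In platinum-treated dogs with a short DFI, the genes with the smallest p that stood higher included TRMT13, TRMT10C and POP5, which act on transfer RNA, DDX18 and UTP6, which act in ribosome assembly, TOMM70 of mitochondrial import and CDC6 of DNA replication. Those that stood lower included the receptor PLA2R1, the lysosomal peptidases SCPEP1 and CTSH and the chemokine CXCL14. The differences ran from 0.78 to 1.55 for the 15 higher genes with the smallest p and from -0.90 to -2.95 for the 15 lower genes, and the groups did not overlap for any of the 30. No probeset above the reporter level passed the correction, and the lowest adjusted p among them was 0.549. Of the 6448 expressed genes, 383 (5.94%) had an unadjusted p under 0.05 by limma. Of these 177 stood higher (2.75%) and 206 stood lower (3.19%) in the short-interval dogs. The groups did not overlap for 297 genes (4.61%), 166 higher and 131 lower. Among the 383 genes, 33 were higher and 92 were lower by more than 2-fold. Only 3 of all 42860 probesets (0.007%) had an adjusted p under 0.05, and each lay far below the reporter level; LRRIQ4 was one, with an adjusted p of 0.000799 and means of 1.29 and -8.16. Of all probesets above the level, 974 had an unadjusted p under 0.05 by limma and 974 by the methods' t-test, and 776 were shared. Limma put 426 of them higher and 548 lower, and the methods' t-test 523 and 451.

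TRMT13, which methylates the ribose of transfer RNA, stood at 8.14, 8.04, 8.39, 8.56 and 8.54 in the DFI < 100 dogs and at 7.46, 7.00 and 6.80 in the DFI > 300 dogs. The lowest DFI < 100 dog, 173175, lay above the highest DFI > 300 dog, 168327. The difference was 1.25 (standard error 0.23), a 2.37-fold higher signal, with an adjusted p of 0.855. TRMT10C, a subunit of the mitochondrial ribonuclease P that trims transfer RNA, stood at 9.35, 8.77, 9.01, 9.28 and 9.63 against 7.99, 8.15 and 6.83, a difference of 1.55 (standard error 0.35). TRMT61B, a methyltransferase of mitochondrial transfer RNA, stood at 8.88, 8.74, 9.19, 8.79 and 9.09 against 8.18, 7.69 and 8.21, a difference of 0.91 (standard error 0.21). For TRMT10C dog 180223 lay lowest of the 8, and for TRMT61B dog 180119 did. POP5, a subunit of nuclear ribonuclease P, differed by 0.98 (standard error 0.25), and SEPSECS, which makes selenocysteine on its transfer RNA, by 0.78 (standard error 0.19). For SEPSECS all 3 long-interval dogs, at 6.64, 6.61 and 6.47, lay below the reporter level, so its signal was at least 1.40-fold higher in the short-interval dogs.

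DDX18, a helicase of ribosome assembly, stood at 7.96, 7.99, 7.71, 7.68 and 7.64 in the DFI < 100 dogs and at 6.40, 6.87 and 6.92 in the DFI > 300 dogs. All 5 short-interval dogs lay above the long-interval dogs, and the difference was 1.07 (standard error 0.20). UTP6, a part of the complex that processes the small ribosomal RNA, stood at 8.39, 8.39, 9.15, 8.93 and 8.75 against 7.40, 8.06 and 7.06, a difference of 1.22 (standard error 0.30). TOMM70, a receptor of the mitochondrial import machinery, stood at 10.46, 10.59, 10.43, 10.62 and 10.74 against 9.70, 9.75 and 9.87, and PRELID3B, which moves lipid between mitochondrial membranes, differed by 0.89 (standard error 0.17). The spread within groups was narrow for both, with SDs of 0.13 and 0.08 for TOMM70 and 0.14 and 0.08 for PRELID3B. CDC6, which licenses the start of DNA replication, stood at 8.71, 7.71, 7.74, 8.21 and 7.69 against 6.95, 6.81 and 6.94. Dog 153599 was highest for CDC6, and the difference was 1.11 (standard error 0.28). The others of the 15 were NAA50 (0.89), RSRP1 (1.42), PSMD12 of the proteasome (0.89), LOC607405 (1.33) and BANP (0.99), and every adjusted p was 0.855. BANP was below the reporter level in all 3 long-interval dogs, which sets a bound of at least 1.38-fold, and DDX18, CDC6 and LOC607405 were so in 2 of the 3.

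PLA2R1, a receptor of secreted phospholipases, stood at 5.86, 6.26, 6.22, 6.22 and 6.59 in the DFI < 100 dogs and at 8.53, 7.51 and 7.99 in the DFI > 300 dogs. All 5 short-interval dogs lay below the reporter level and all 3 long-interval dogs above it. The difference was -1.78 (standard error 0.28) with an adjusted p of 0.623, and the signal was at least 2.52-fold higher in the long-interval dogs. JAZF1, a zinc finger protein of the nucleus, stood at 5.87, 5.79, 5.76, 6.71 and 6.44 against 7.63, 8.41 and 7.91, a difference of -1.87 (standard error 0.31) with an adjusted p of 0.721. The short-interval dogs were below the reporter level here too, and the bound was at least 2.47-fold. CXCL14, a chemokine, stood at 7.31, 8.42, 6.59, 7.96 and 8.87 against 11.12, 9.66 and 11.57. It differed by -2.95 (standard error 0.61), or 7.73-fold, with an adjusted p of 0.855, and its second probeset above the reporter level differed by -2.83.

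SCPEP1, a lysosomal carboxypeptidase, stood at 10.88, 10.23, 10.02, 10.12 and 10.19 against 11.24, 11.66 and 12.06, a difference of -1.36 (standard error 0.28). CTSH, the lysosomal protease cathepsin H, stood at 10.55, 10.78, 10.15, 10.72 and 10.35 against 11.36, 11.79 and 12.60, a difference of -1.41 (standard error 0.31). Both genes lay above the reporter level in all 8 dogs, and in both dog 180223 was highest. CPQ, a further carboxypeptidase, stood between 6.10 and 6.40 in the DFI < 100 dogs, below the reporter level in all 5, and at 7.09, 9.97 and 8.66 in the DFI > 300 dogs. Its difference of -2.31 (standard error 0.55) stands for at least 3.72-fold, and was -1.62 without dog 180119. Of the 10 cathepsin genes expressed, a family chosen after these values were seen, all 10 were lower in the DFI < 100 dogs with a median of -0.60, and 3 had an unadjusted p under 0.05. These were CTSH, CTSC (-1.07, and -0.59 without dog 180119) and CTSZ (-0.86), which kept such a p in 2 of 8 fits with a dog left out. CTSH had been picked for its small p in these dogs, so it adds no evidence to the count of 3 or to the median. Over all expressed genes the median was 0.02 and 52.2% were higher, and 3.19% were lower with an unadjusted p under 0.05.

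MOB3B, of a family of kinase activators, differed by -1.49 (standard error 0.32), VANGL1, a membrane protein of planar cell polarity, by -1.60 (standard error 0.36) and PSEN2, the catalytic presenilin of gamma-secretase, by -1.29 (standard error 0.31). SUOX (sulfite oxidase) differed by -1.39, GOLIM4 of the Golgi membrane by -1.47, SYNJ1 (an inositol phosphatase) by -1.34, NIBAN1 by -1.51, R3HDM2 by -0.90 and LOC480601 by -2.21, each with an adjusted p of 0.855. PSEN2, SYNJ1 and LOC480601 each lay below the reporter level in 3 of the 5 short-interval dogs, and SUOX did in 2. The sizes of these differences are uncertain. Of the 30 genes, 23 had 48 other probesets. All 13 of these above the reporter level had the same sign, and 3 of the dimmer ones, for CPQ, R3HDM2 and SCPEP1, had the opposite sign. The 30 genes were picked by their p in these dogs, so the comparisons below within parts of them describe the values and give no further evidence.

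**Figure D1:**
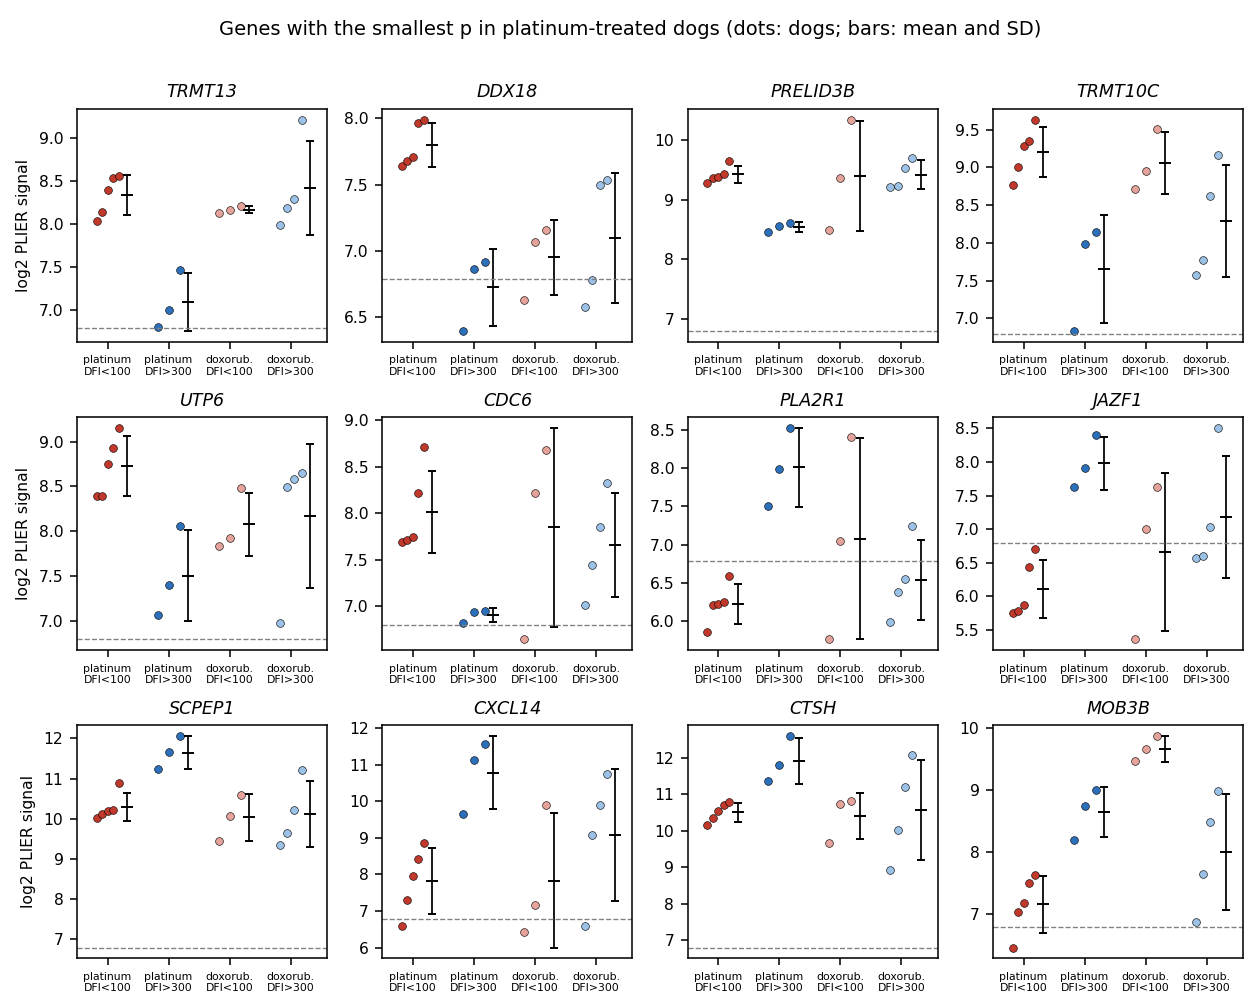
Log2 PLIER signal of 12 genes in each dog (points) by drug class and DFI cohort (platinum, 5 and 3 dogs; doxorubicin, 3 and 4 dogs), with the mean and SD of each group (bars) and the reporter level of 6.79 (dashed line). Red and blue points of the platinum dogs do not overlap in any panel, while the pale points of the doxorubicin dogs do so in 11 of 12, MOB3B being the exception.

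The differences of TRMT13, PLA2R1 and CXCL14 were of like size when sex, tumor subtype or drug was the same in all dogs compared. In spayed females alone (3 against 3) TRMT13 differed by 1.28 and PLA2R1 by -1.91, in osteoblastic tumors alone (3 against 3) by 1.24 and -1.65, and in cisplatin-treated dogs alone (3 against 2) by 1.29 and -1.64. CXCL14 differed by -3.49, -2.82 and -3.17 in the same 3 subsets. Each of the 30 genes kept its sign in each subset, and all 30 had an unadjusted p under 0.05 in females and in osteoblastic tumors, against 27 in cisplatin-treated dogs. With age in the fit TRMT13 differed by 1.19, PLA2R1 by -1.98 and CXCL14 by -3.53. The sexes and subtypes were not balanced, since no DFI > 300 dog was male or had a giant cell tumor.

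Genes that carry platinum into and out of cells showed no difference that passed a test. SLC31A1, the copper transporter, stood at 7.26, 7.16, 7.76, 6.53 and 6.79 in the DFI < 100 dogs and at 7.55, 7.19 and 6.25 in the DFI > 300 dogs. It differed by 0.10 (standard error 0.38). The groups overlapped across most of their range. ATOX1, a copper chaperone, differed by -0.07 (standard error 0.34), and the efflux pumps ABCC1 by -0.32 (standard error 0.33) and ABCC5 by -0.42 (standard error 0.45). Of 17 listed genes of platinum uptake and export 13 were measured and these 4 were expressed, with a median of -0.19.

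Glutathione and metallothionein genes were mostly lower in the DFI < 100 dogs, 11 of the 13 expressed, with a median of -0.20. Among all 18 measured, 16 were lower. For comparison, 52.2% of all expressed genes were higher, with a median of 0.02. GCLM, the regulatory subunit of the enzyme that starts glutathione synthesis, stood at 9.23, 8.62, 8.56, 8.84 and 9.17 against 9.67, 9.53 and 9.54. Every DFI > 300 dog lay above every DFI < 100 dog, and the difference was -0.70 (standard error 0.22) with an adjusted p of 0.855. A second GCLM probeset above the reporter level differed by -0.29. GSS (glutathione synthetase) differed by -0.81 (standard error 0.48) and the microsomal transferase MGST1 by -1.28 (standard error 0.80). GPX1 (a glutathione peroxidase) stood between 11.03 and 12.81 in the DFI < 100 dogs and between 12.08 and 12.28 in the DFI > 300 dogs, and the metallothionein MT2A differed by 0.32 (standard error 0.36).

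Nucleotide excision repair genes stood slightly higher in the DFI < 100 dogs, 17 of the 20 expressed, with a median of 0.31 and 0 with an unadjusted p under 0.05. Among all 28 measured, 24 were higher with a median of 0.26. The share of all expressed genes that were higher was 52.2%, with a median of 0.02. XPA, which checks the damage, differed by 0.48 (standard error 0.29). It lay below the reporter level in all 3 long-interval and 2 short-interval dogs, which sets a bound of at least 1.01-fold. ERCC5, an endonuclease, differed by 0.44 (standard error 0.29), and CDK7, CCNH and MNAT1, the kinase module of the repair factor TFIIH, by 0.51, 0.45 and 0.46. PCNA, the sliding clamp of DNA synthesis, differed by 0.38 (standard error 0.26), and by -0.18 on its second probeset above the reporter level. The mean of the 20 genes was 8.61, 8.51, 8.78, 8.52 and 8.51 in the DFI < 100 dogs and 8.40, 8.31 and 8.42 in the DFI > 300 dogs. ERCC1, a subunit of the other endonuclease that was chosen after its values were seen, lay below the reporter level at 6.40 ± 0.13 (SD, n = 5) against 6.55 ± 0.05 (SD, n = 3). It differed by -0.15 (standard error 0.17).

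Among 19 expressed genes of the Fanconi and homologous recombination pathways 10 were higher and 9 lower, with a median of 0.15. FANCD2, the protein that is marked with ubiquitin at crosslinks, stood at 9.20, 7.81, 8.98, 8.16 and 8.61 against 8.20, 7.62 and 7.02, a difference of 0.94 (standard error 0.40) with overlapping groups. BRCA2 differed by 0.38 (standard error 0.36), RAD50 by 0.61 (standard error 0.29) and BARD1 by -0.37 (standard error 0.38). Of 5 mismatch repair genes 4 were higher, with PMS1 at 0.56 (standard error 0.24) and MSH6 at 0.29 (standard error 0.28). No gene of these repair lists passed the correction. Over the 5 lists of platinum handling and repair 3 of 61 expressed genes (4.92%) had an unadjusted p under 0.05, near the 5.94% of all expressed genes.

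**Figure D2:**
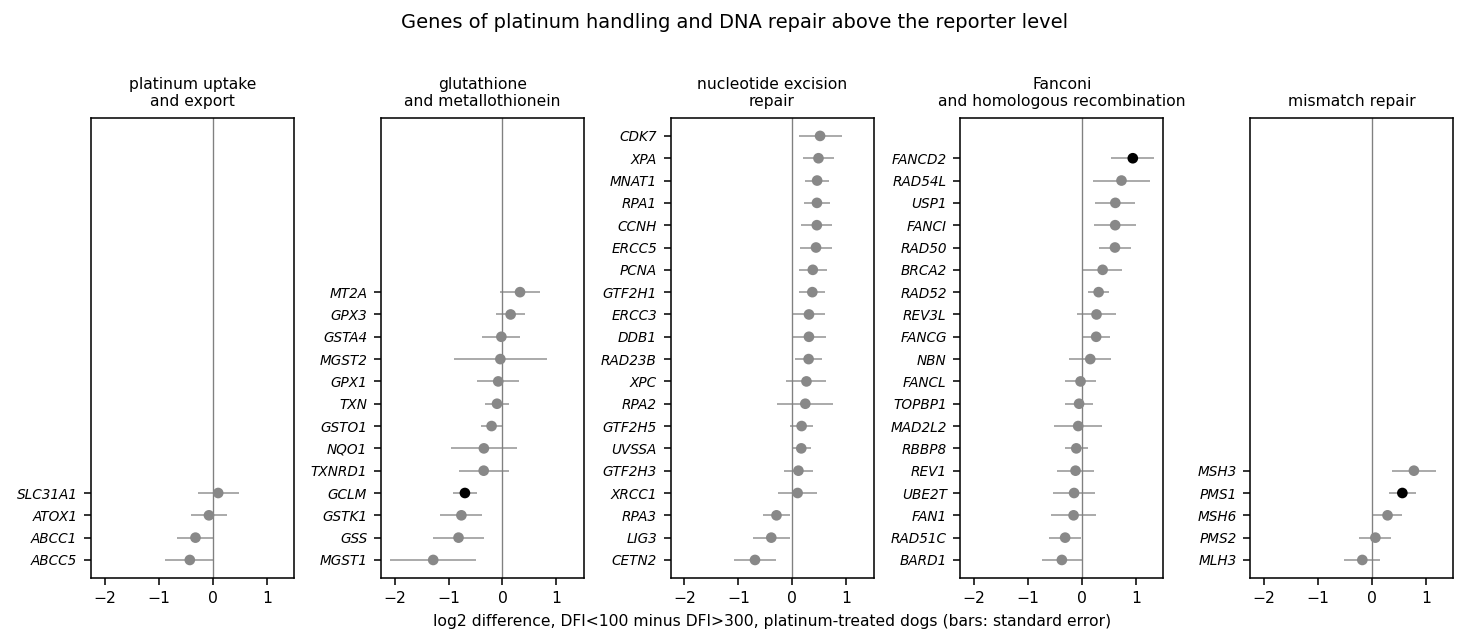
Difference in log2 PLIER signal (DFI < 100 minus DFI > 300, platinum-treated dogs, 5 against 3) of each expressed gene of 5 lists on platinum handling and DNA repair, with its standard error (bars). Black points mark an unadjusted p under 0.05, which 3 of 61 genes had (GCLM, FANCD2 and PMS1; 4.92%, against 5.94% of all expressed genes), and 17 of 20 points of nucleotide excision repair lie right of 0.

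Cell cycle genes were higher in the DFI < 100 dogs for 21 of the 25 expressed, with a median of 0.44, and 4 had an unadjusted p under 0.05. Among all 32 measured, 26 were higher. Over all expressed genes 52.2% were higher, and 2.75% were higher with an unadjusted p under 0.05. CCNA2 (cyclin A2) stood at 8.70, 8.28, 9.36, 8.52 and 8.82 against 7.47, 7.95 and 8.08 without overlap, a difference of 0.90 (standard error 0.28). RRM1, the large subunit of ribonucleotide reductase, differed by 0.85 (standard error 0.28), the helicase subunit MCM2, below the reporter level in 2 of the 3 long-interval dogs, by 1.22 (standard error 0.43) and the mitotic kinase AURKA by 0.70 (standard error 0.29). Over the 25 genes the mean was 9.58, 9.25, 9.44, 8.82 and 9.48 against 8.96, 8.89 and 9.10. Dog 208911, with a giant cell tumor, lay lowest of all 8, and the other 4 short-interval dogs lay above every long-interval dog. MYC, a transcription factor of growth, stood at 6.91, 8.04, 7.36, 6.74 and 7.80 against 6.03, 6.07 and 6.43, so that the DFI > 300 dogs and dog 208911 were below the reporter level. It differed by 1.19 (standard error 0.33), or at least 1.41-fold, with an adjusted p of 0.855.

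Of 18 expressed genes of hypoxia and glycolysis, 15 were higher, with a median of 0.38, as were 23 of the 27 measured. An unadjusted p under 0.05 was found for 1 of the 18, near the 5.94% of all expressed genes. Of all expressed genes 52.2% were higher, with a median of 0.02. LDHA (lactate dehydrogenase A) stood at 12.62, 12.66, 12.73, 12.58 and 13.17 against 12.10, 12.41 and 11.76 without overlap, a difference of 0.66 (standard error 0.23). The glycolytic enzymes ENO1, ALDOA and GPI differed by 0.49, 0.41 and 0.40. Oxidative phosphorylation genes were higher for 38 of 50, with a median of 0.14, and NDUFC2 of complex I was the 1 gene with an unadjusted p under 0.05, at 0.50 (standard error 0.22). Genes of p53 targets and apoptosis went both ways, 5 higher and 6 lower and 6 higher and 6 lower, and BCL2L1, an inhibitor of apoptosis, differed by -0.59 (standard error 0.25).

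Extracellular matrix and adhesion genes were lower in the DFI < 100 dogs for 29 of the 36 expressed, with a median of -0.45, and for 31 of the 41 measured. Of the 36, 4 were lower with an unadjusted p under 0.05, against 3.19% of all expressed genes. The median of all expressed genes was 0.02, and 52.2% were higher. FBLN5, an elastic fibre protein, stood at 9.43, 8.13, 8.21, 9.47 and 8.44 against 10.56, 9.90 and 9.88 without overlap, a difference of -1.38 (standard error 0.40). COL4A2 of basement membrane collagen stood at 10.59, 10.17, 9.91, 12.37 and 10.63 against 12.24, 11.70 and 11.99. Dog 208911 lay above all 3 long-interval dogs for COL4A2, and the difference was -1.24 (standard error 0.53), or -1.65 without that dog. ITGA6 (an integrin) differed by -1.27 and FBLN1 by -1.18, although a second FBLN1 probeset above the reporter level differed by 0.18. The main bone collagen genes COL1A1 and COL1A2 differed by -0.11 (standard error 0.18) and -0.12 (standard error 0.18). Osteoblast and bone matrix genes were lower for 9 of the 13 expressed, with a median of -0.12, and for 9 of the 18 measured.

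Genes of growth factor and immune signals varied. Of 6 expressed genes of the IGF axis 5 were lower, and IGFBP7, which binds insulin-like growth factors, stood at 12.20, 11.23, 11.61, 12.55 and 11.68 against 12.69, 12.73 and 12.78, a difference of -0.88 (standard error 0.31) without overlap. IGF2BP1, an mRNA-binding protein made in the embryo, stood at 8.88, 7.28, 9.85, 7.81 and 8.70 against 8.41, 4.11 and 2.97. The long-interval dogs were split, with dog 168327 inside the range of the short-interval dogs and the others far below the reporter level, so the difference of 3.34 (standard error 1.18) rested on 2 dogs and ran from 2.24 to 4.96 with 1 dog left out. CCDC3, a secreted protein, differed by -2.86 (standard error 0.83), with dog 208911 at 8.99 inside the range of 8.27 to 10.85 of the DFI > 300 dogs. CCDC3 lay below the reporter level in 3 of the 5 short-interval dogs, so the size of its difference is uncertain. Interferon response genes were lower for 12 of 15 expressed and 17 of 22 measured, with a median of -0.57 over the 15. For all expressed genes the median was 0.02, and 52.2% were higher. IFI44 differed by -1.03 (standard error 0.43) and lay below the reporter level in 2 of the 5 short-interval dogs. CXCL10, among the 3 higher interferon genes, differed by 3.20 (standard error 1.48). Antigen presentation genes were lower for 13 of 15 expressed, with a median of -0.32. RANBP3L differed by 0.96 (standard error 0.56), with dog 208911 at 9.77 and the other short-interval dogs between 7.08 and 8.02. HPRT1, a common reference gene, differed by 0.07 (standard error 0.33).

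Macrophage markers were lower in platinum-treated dogs with a short DFI for all 13 expressed, with a median of -1.22, and for all 16 measured, by their brightest probesets. LAPTM5, among the 13, differed by -0.60, and its other probesets above the reporter level by -0.56 and 0.13. In bulk tumor RNA fewer cells of a type and less RNA per cell cannot be told apart. The scavenger receptor CD163 stood at 8.86, 7.40, 6.92, 8.66 and 9.53 in the DFI < 100 dogs and at 9.19, 11.74 and 9.70 in the DFI > 300 dogs. It differed by -1.94 (standard error 0.76). VSIG4, a complement receptor of resident macrophages, stood at 7.26, 5.89, 6.27, 6.65 and 6.83 against 6.74, 10.03 and 8.58, a difference of -1.87 (standard error 0.68). VSIG4 lay below the reporter level in 3 of the 5 short-interval and 1 of the 3 long-interval dogs, so the size of its difference is uncertain. Dogs 180119 and 180223 were above every short-interval dog for both, and dog 168327 was among them. Without dog 180119 the differences were -1.17 for CD163 and -1.08 for VSIG4. MRC1 (the mannose receptor) differed by -1.85, and C1QA, C1QB and C1QC (the chains of complement C1q) by -1.26, -1.41 and -1.34, all with an unadjusted p under 0.05 and an adjusted p of 0.855. With a dog left out, an unadjusted p under 0.05 was kept in 5 of 8 fits for C1QB, CD163 and VSIG4. It was kept in 3 of 8 for MRC1, C1QA and C1QC. CD68 differed by -1.03 (standard error 1.34), with dogs 153599 and 208911, the giant cell tumors, at 11.27 and 11.82 and dog 208756 at 5.63.

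The mean over the 13 macrophage markers was 9.44, 7.98, 7.44, 9.01 and 8.91 in the DFI < 100 dogs and 8.70, 10.83 and 9.76 in the DFI > 300 dogs. The groups overlapped, and for none of the 13 genes were they apart. Without dog 180119 the median difference was -0.65 and without dog 168327 it was -1.93. The mean of the 10 cathepsin genes, several of which macrophages and osteoclasts make strongly, was 10.53, 9.89, 9.55, 10.63 and 10.38 against 10.58, 11.32 and 10.77, and dog 180119 was again highest. What part the macrophage signal has in the lower lysosomal and immune genes was not tested. The 6 osteoclast markers expressed averaged 11.99 and 12.14 in the giant cell tumors of dogs 153599 and 208911 and 7.08 in dog 208756, against 10.67 to 11.75 in the long-interval dogs, with a median difference of -0.73 over the 6 and 8 of the 10 measured lower. Endothelial and pericyte markers were lower for 7 of 10 (median -0.42), among them PDGFRB, a receptor of pericytes, at -1.02 (standard error 0.38), which was -0.55 without dog 180119. Of the T and NK cell markers 2 were expressed, both higher, and CCL5, a chemokine of T cells, differed by 1.97 (standard error 0.81). Without dog 168327, at 4.10, the CCL5 difference was 0.93, and an unadjusted p under 0.05 was kept in 2 of 8 fits with a dog left out. CCL5 lay below the reporter level in 2 of the 3 long-interval dogs, so the size of its difference is uncertain. The defining T cell, B cell and muscle markers lay mostly below the reporter level, with 2 of 18, 1 of 9 and 3 of 16 measured genes above it.

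**Figure D3:**
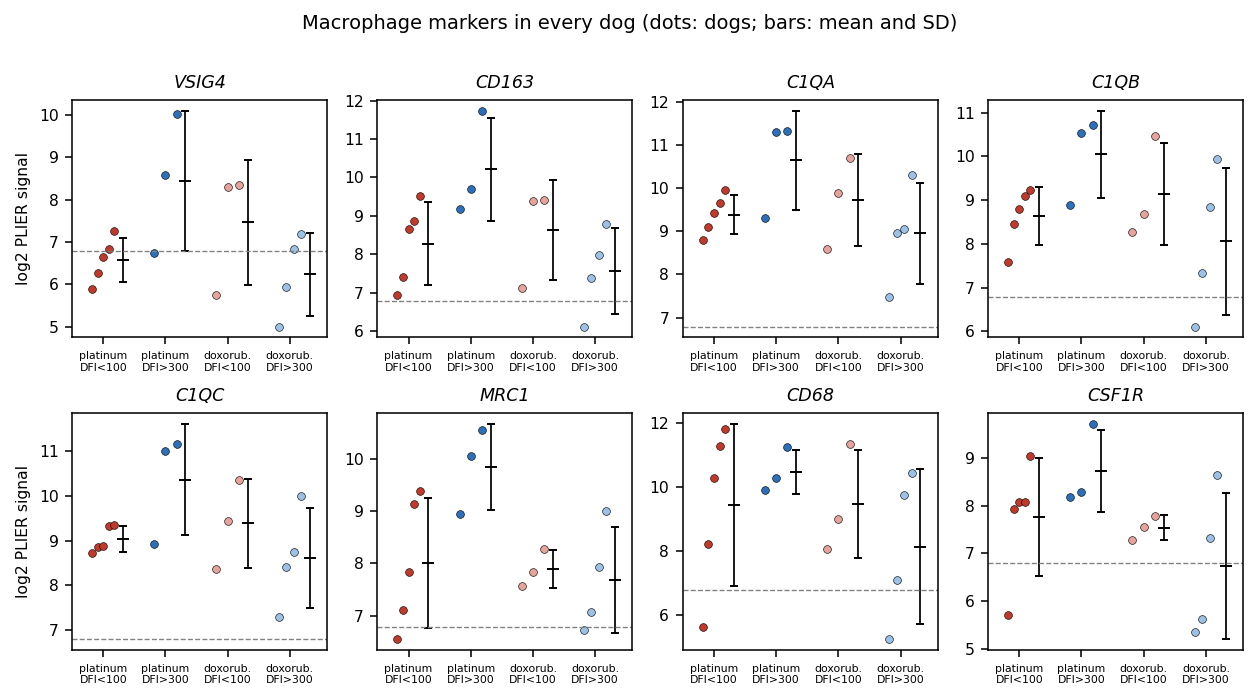
Log2 PLIER signal of 8 macrophage markers in each dog (points) by drug class and DFI cohort (platinum, 5 and 3 dogs; doxorubicin, 3 and 4 dogs), with the mean and SD of each group (bars) and the reporter level (dashed line). In platinum dogs the DFI > 300 mean is the higher one in each panel, and in doxorubicin dogs the DFI < 100 mean is.

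The doxorubicin-treated dogs allowed the same cohorts to be compared in separate animals. Across the 6448 expressed genes the outcome difference of the platinum dogs and that of the doxorubicin dogs had a Pearson r of -0.06 and a Spearman rho of -0.04, and 48.8% of genes had the same sign. These are correlations across genes, which are not independent. In doxorubicin dogs 218 expressed genes (3.38%) had an unadjusted p under 0.05, 52.8% were higher in the DFI < 100 dogs, and 0 probesets passed the correction in limma. Of the 383 platinum genes 194 (50.7%) had the same sign in doxorubicin dogs, and 15 had an unadjusted p under 0.05 in both, 5 with the same sign and 10 with the opposite one. Of the 15 higher platinum genes 5 were higher in the doxorubicin dogs too, and of the 15 lower genes 6 were lower.

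The difference between the drug classes was tested in 1 model of all 15 arrays. No expressed gene passed the correction (lowest adjusted p 0.915), and 272 (4.22%) had an unadjusted p under 0.05. MOB3B stood at 7.18, 7.63, 7.50, 6.46 and 7.04 in the short-interval platinum dogs and at 9.00, 8.74 and 8.20 in the long-interval ones. In doxorubicin dogs it ran the other way, at 9.46, 9.87 and 9.66 with a short interval and 7.65, 8.48, 8.99 and 6.87 with a long one. The groups did not overlap in either drug class, a pattern of opposite direction that 5 of the 6448 genes (0.0775%) had, and the differences of -1.49 and 1.66 were -3.15 apart (standard error 0.61, adjusted p 0.915). Since the long-interval dogs were all spayed females in the platinum class and all castrated males in the doxorubicin class, drug class and sex cannot be told apart among them. With sex in the fit, a term that only the short-interval dogs can set, the MOB3B differences were -3.20 apart. SULT1A1, a sulfotransferase, differed by -1.23 in platinum and 1.51 in doxorubicin dogs, and PSEN2 by -1.29 and 0.84. NECTIN3, a cell adhesion protein, averaged 7.87 in short-interval and 6.87 in long-interval platinum dogs, and 6.39 and 7.80 in the doxorubicin dogs.

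ATR, the kinase that signals stalled replication, stood at 8.81, 7.90, 8.00, 8.59 and 8.30 in the short-interval platinum dogs and at 7.55, 8.31 and 7.25 in the long-interval ones, and differed by 0.62 (standard error 0.32). In doxorubicin dogs it stood at 8.19, 7.59 and 7.50 against 8.42, 8.70, 8.59 and 8.85 without overlap, and differed by -0.88 (standard error 0.30). Between the drug classes the 2 differences had an adjusted p of 0.959. For TRMT13 the platinum and doxorubicin differences were 1.25 and -0.25 (adjusted p 0.959 of the difference between classes), and for PLA2R1 -1.78 and 0.53, which were -2.31 apart (standard error 0.69). CXCL14 was lower in both, by -2.95 and -1.24.

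**Figure D4:**
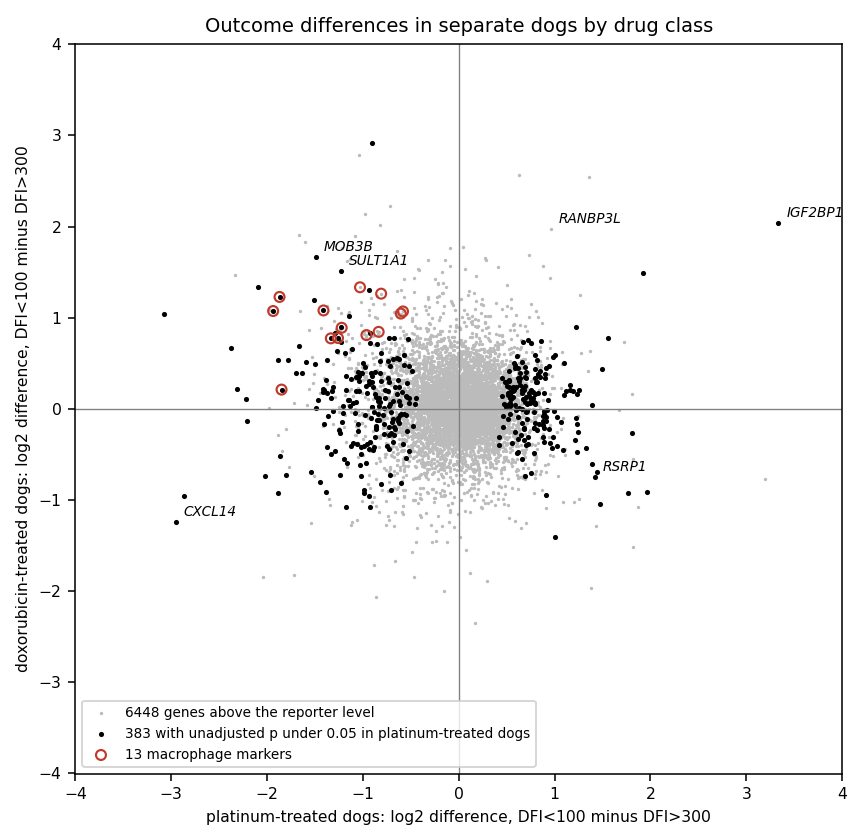
Outcome difference in log2 PLIER signal (DFI < 100 minus DFI > 300) of 6448 expressed genes in platinum-treated dogs (horizontal) and doxorubicin-treated dogs (vertical), with the 383 genes of unadjusted p under 0.05 in platinum dogs in black and 13 macrophage markers circled in red. The cloud has no slope (r of -0.06), and all 13 circles lie left of 0 and above 0.

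All 13 macrophage markers were lower in short-interval platinum dogs and higher in short-interval doxorubicin dogs, where the median was 1.04. The difference between the drug classes had an unadjusted p under 0.05 for 5 of them, and for 4.22% of all expressed genes. The adjusted p in limma was 0.959 for each of the 5. With a dog left out, an unadjusted p under 0.05 was kept in all 15 fits for VSIG4 and in 12 for CD163. No other marker kept it in more than 6. In doxorubicin dogs the mean of the 13 markers ran from 8.58 to 9.03 with a short and from 7.18 to 9.38 with a long interval, so these groups overlapped too, and 0 of the 13 had an unadjusted p under 0.05 there. Medians in platinum and doxorubicin dogs were 0.31 and 0.02 for nucleotide excision repair, 0.44 and 0.22 for the cell cycle, 0.38 and 0.02 for hypoxia and glycolysis, and 0.14 and 0.24 for oxidative phosphorylation. They were -0.45 and -0.16 for matrix and adhesion, -0.57 and 0.02 for the interferon response and -0.73 and 0.74 for osteoclast markers. No test was made of a list.

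**Figure D5:**
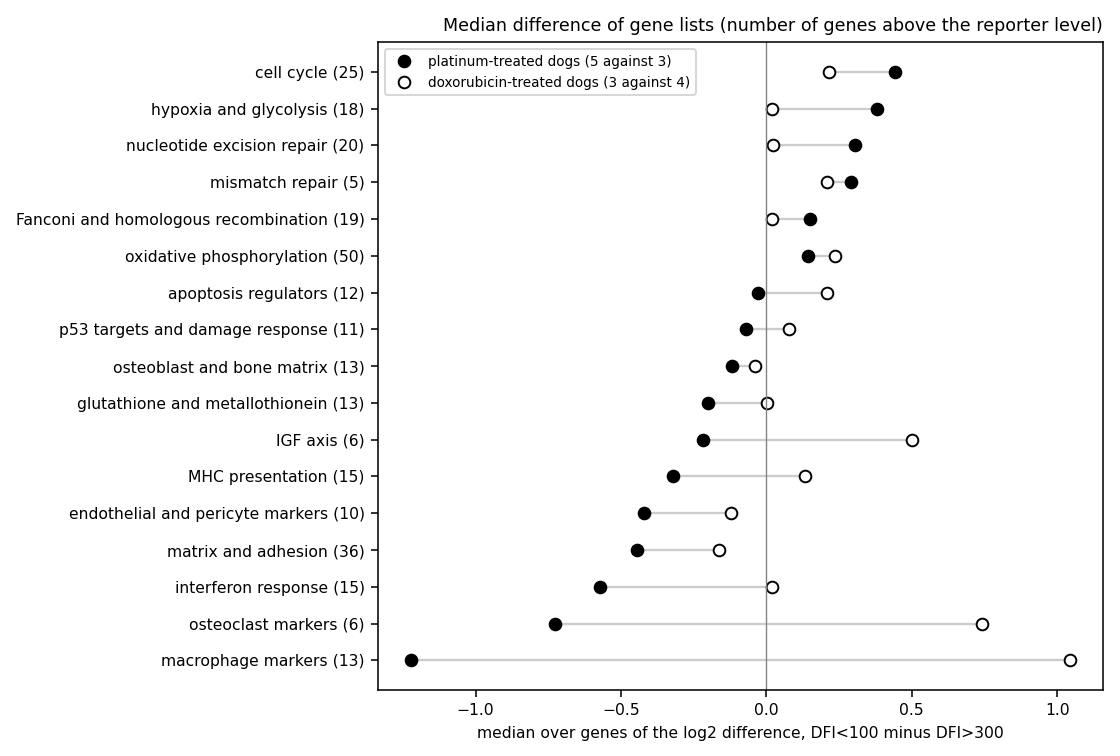
Median over the expressed genes of a list of the outcome difference in log2 PLIER signal (DFI < 100 minus DFI > 300), in platinum-treated (filled) and doxorubicin-treated (open) dogs, for the 17 pathway and cell type lists with at least 5 expressed genes, whose number follows the name (genes taken from the paper and the 3 gene families are not drawn). The points lie farthest apart for macrophage markers, at -1.22 and 1.04. Both are above 0 for the cell cycle, hypoxia and glycolysis, oxidative phosphorylation and the lists of nucleotide excision, Fanconi and mismatch repair.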

How the data were processed

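Total RNA of snap frozen tumors was hybridised to Affymetrix Canine 2.0 arrays. The deposited values are linear intensities from the PLIER method, which the authors ran in Affymetrix Expression Console to give each probeset 1 value in each dog. How probes were normalized before PLIER is not given in the sources used here. Of 43035 probesets, 175 controls were left out. The log2 was taken with no offset, since no value was at or under 0. The comparison of cohorts used 8 arrays (limma 3.58.1, R 4.3.3), and that of drug classes an interaction contrast on 4 groups of all 15 arrays. The standard errors and p-values of the doxorubicin dogs came from that 4-group fit. P-values were adjusted by Benjamini-Hochberg over all 42860 probesets. The methods' t-test was run on the same values.

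Probesets with 1 symbol in the platform annotation numbered 29254, with several 439 and with none 13167. The reporter level was the 95th percentile of 64 RPTR controls per array, averaged, and ran from 6.53 to 7.12 over the arrays.

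Named genes are the 15 higher and 15 lower expressed genes of smallest p, up to 4 expressed members of each list with an unadjusted p under 0.05, the member with the highest mean signal of each platinum handling list, genes the paper names, and the 5 of smallest p in each direction of the interaction. Others that illustrate a list, and ERCC1, were chosen after their values were seen. The dogs, the 27 lists, the 3 gene families and the tests were chosen with earlier results of these data known. Members of a list were counted and given by their median, with no test. The alternatives were the t-test, a trended and robust fit, the 4-group fit, an offset of 16, quantile normalization, no reporter filter, age, drug, the 3 prime to 5 prime ratio or (for the interaction) sex as covariates, females, osteoblastic tumors or cisplatin alone, and each dog left out. The scripts were tested on simulated data.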

Additional observations from a re-analysis of the deposited data

Results flagged for a closer look

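In groups of 5 dogs, 75 genes were examined for a dog far from the others, and the limit used sets 1 dog apart in about 1 of 20 groups by chance. Many of the 75 genes were chosen for a small p, so that rate need not hold for them. Dog 153599 lay apart for BANP, at 7.17 with the other DFI < 100 dogs between 7.34 and 7.39, and for SCPEP1, at 10.88 with the others between 10.02 and 10.23. Dog 223986 lay apart for LDHA, at 13.17 with the others between 12.58 and 12.73. In each case the groups still did not overlap.

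For 3 of 78 genes examined the cohorts stood one way in platinum dogs and the other way in doxorubicin dogs, without overlap in either. The 78 genes include those chosen for the smallest p of that contrast, so the count gives no rate, and among the 6448 expressed genes 5 (0.0775%) had the pattern. The platinum minus doxorubicin difference was -3.15 for MOB3B and -2.84 for SNCAIP, neither of which passed the correction (adjusted p 0.915 and 0.959 in limma). It was 16.59 for LRRIQ4 (adjusted p 0.0264), a gene far below the reporter level in every dog.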

How the results depend on the processing

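No paired analysis was possible because each array is of a different dog, and the labels pair no dogs across the cohorts. With 8 dogs, 0 expressed genes passed the correction, and the 3 probesets that did lay far below the reporter level. That count was 1 with the methods' t-test, 0 with a trended and robust fit, 0 in the 4-group fit, 0 with an offset of 16, 1 with age in the fit, 0 in spayed females and 12 in cisplatin-treated dogs, and ran from 2 to 15 with 1 dog left out. The 974 probesets above the level with an unadjusted p under 0.05 were 2484 without the reporter filter and 683 to 1218 with a dog left out. The 320 probesets that also passed a 2-fold difference were 1003 without the filter, 756 in osteoblastic tumors, 599 in cisplatin-treated dogs and 234 to 482 with a dog left out, the highest without dog 208911. The 736 without overlap were 1891 without the filter, 1793 in females, 2441 in osteoblastic tumors, 3210 in cisplatin-treated dogs and 895 to 1777 with a dog left out, since fewer dogs overlap less. The share of higher genes among the 974, 43.7%, was 60.8% with age in the fit, 31.5% in osteoblastic tumors, 54.2% without dog 173175 and 53.7% by the t-test. The 1 probeset of the interaction, that of LRRIQ4, was 0 with a trended and robust fit, an offset of 16 or sex in the fit, 3 in osteoblastic tumors and 0 to 3 with a dog left out. Among the genes named, the sign turned for ATOX1 with age in the fit (0.10) and in females (0.085), for GPX1 in the same fits (0.19 and 0.13) and for HPRT1 in osteoblastic tumors (-0.21) and cisplatin-treated dogs (-0.16). With a dog left out ATOX1 ran from -0.31 to 0.081, GPX1 from -0.25 to 0.19, HPRT1 from -0.080 to 0.31 and SLC31A1 from -0.27 to 0.38. In those 8 fits FANCD2, PMS1, FBLN1 and IFI44 kept an unadjusted p under 0.05 in 3. AURKA, NDUFC2 and ITGA6 kept it in 2, and COL4A2 and BCL2L1 in 1. The medians of the p53, apoptosis, oxidative phosphorylation, osteoblast, IGF axis and osteoclast lists turned sign under at least 1 alternative, and those of nucleotide excision repair, the cell cycle, matrix and adhesion and macrophage markers under none. The interferon median ran from -0.83 without dog 223986 to -0.18 without dog 180223, the antigen presentation median from -0.61 without dog 168327 to -0.041 without dog 180119, the endothelial median from -0.86 without dog 208911 to -0.094 without dog 208756 and the osteoclast median from -1.06 without dog 208911 to 0.15 without dog 208756. That of the Fanconi list was 0.00082 without dog 208756.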

Other observations

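A pair of genes not counted as expressed, IGF2 and FBP1, had large differences in platinum-treated dogs, and they were chosen after their values were seen. No bound was set for either, so the sizes are uncertain. IGF2, the fetal growth factor, stood at 3.28, 3.92, 3.89, 2.98 and 3.56 in the DFI < 100 dogs and at 8.94, 5.70 and 6.25 in the DFI > 300 dogs. Only dog 168327 of the 8 lay above the reporter level. The difference was -3.44 (standard error 0.68) with an adjusted p of 0.855 in limma, and -0.60 (standard error 1.18) in doxorubicin dogs. FBP1, an enzyme of gluconeogenesis, stood at 8.35, 6.89, 4.47, 7.65 and 5.80 against 3.65, 4.50 and 1.28, a difference of 3.49 (standard error 1.01), and of 2.24 (standard error 1.28) in doxorubicin dogs. Its groups overlapped by 1 dog on each side.

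Of 10 expressed TRMT genes, 8 were higher in the short-interval platinum dogs with a median of 0.35. The family was taken up after TRMT13 had been seen. The 3 with an unadjusted p under 0.05 by limma were TRMT13, TRMT10C and TRMT61B. All 3 are among the higher genes picked above for their small p in these dogs. Their count, and the count of higher genes, median and mean that include them, therefore give no further evidence. Over all expressed genes 52.2% were higher, and 2.75% were higher with an unadjusted p under 0.05. The mean over the 10 was 8.41, 8.08, 8.49, 8.40 and 8.40 against 7.88, 7.78 and 7.90. In doxorubicin dogs 7 of the 10 were higher, with a median of 0.25. Of 9 expressed UTP genes, chosen in the same way, 8 were higher with a median of 0.36 in platinum dogs and 5 with a median of 0.05 in doxorubicin dogs. UTP6, picked above for its small p, is among the 9, so these values give no further evidence either. UTP4, chosen after its values were seen, differed by 1.23 (standard error 0.45). ACTA1, skeletal muscle actin, stood at 7.30, 6.43, 5.73, 7.42 and 7.50 against 8.86, 9.03 and 7.85 in platinum dogs, a difference of -1.70 (standard error 0.49) without overlap. It lay below the reporter level in 2 of the 5 short-interval dogs, so the size of its difference is uncertain. Of the 3 muscle genes expressed the other 2 were higher.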
